A study of Homo sapiens with 12 samples.

Results

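Wnt5a was added on top of Wnt3a in CHRF288-11 cells, and the 3 arrays of cells given both ligands were set against the 3 arrays of cells given Wnt3a alone. These are 6 of the 12 arrays of the study, taken by their labelled treatment. CHRF288-11 is an established human megakaryoblastic cell line, so all 4 groups share its genotype. The cells given both ligands received recombinant Wnt3a at 150 ng/mL and Wnt5a at 1200 ng/mL. The other groups received Wnt3a alone at 150 ng/mL, Wnt5a alone at 1200 ng/mL, or neither ligand. Cells of every group had first been held without serum for 16 h, and the labels give a time of 8 h for all of them. Each group had 3 arrays, described as biological replicates. Each ligand was given at 1 dose, so an effect of the kind of ligand cannot be told apart from one of how much protein was added.

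Wnt3a signals through beta-catenin: once it engages Frizzled and LRP5 or LRP6 receptors, beta-catenin escapes degradation, and TCF/LEF factors turn on target genes that include feedback inhibitors of the pathway. Wnt5a is the usual ligand of the beta-catenin-independent arms, which run through small GTPases, JNK kinases and calcium, and in some cells it opposes beta-catenin signalling. Megakaryocytes are the marrow cells that release platelets.

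Total RNA was hybridized to Illumina BeadChips with 48803 probes, of which 14051 probes for 10717 genes were detected on at least 3 arrays and tested. Values below are log2 signals after background correction and quantile normalization, and differences are log2 differences between groups adjusted for the BeadChip (called the chip). A probe was past the threshold where limma's adjusted p, by Benjamini-Hochberg over all 14051 probes, was under 0.05. In bulk RNA, a change in the level per cell and a change in the number of cells carrying the transcript cannot be told apart.

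The 12 arrays lay on 2 chips. All 3 arrays of the combination lay on chip 2, where they met Wnt3a array 1, Wnt5a array 2 and untreated array 1, and the other 6 arrays lay on chip 1. The direct comparison within a chip is therefore 3 arrays against 1. Mean signals before normalization ran from 312.1 to 378.3, between 12511 and 14088 probes were detected on an array, and the combination and Wnt3a arrays correlated at 0.9916 to 0.9951, against 0.9938 to 0.9973 within groups. Of 13 markers of the megakaryocyte line, 11 were detected on all 12 arrays, among them ITGA2B, ITGB3, GP9 and GATA1, while PF4 and PPBP were detected on none. Of 22 myeloid markers 12 were detected on no array, MPO and ELANE among them, and of 20 lymphoid markers 14 were detected on none, CD3D and MS4A1 among them. The summed level of the megakaryocyte markers was 40210 to 43560 signal units with both ligands and 42280 to 46030 with Wnt3a, and that of 24 erythroid genes, 13 of them detected on all arrays and 8 on none, was 23250 to 24820 with both ligands and 24490 to 25790 with Wnt3a. The summed level of the myeloid markers was 4280 to 4427 signal units with both ligands and 4485 to 4550 with Wnt3a. That of the lymphoid markers was 2903 to 2958 with both ligands and 3040 to 3237 with Wnt3a. These sums take in every probe of a list, undetected ones too, and are not adjusted for the chip. The part that differences in these sums had in the results was not tested.

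Adding Wnt5a to Wnt3a changed 648 of 14051 probes (4.61%). With both ligands 390 probes (2.78%) were higher than with Wnt3a and 258 (1.84%) were lower. The rises were the larger changes: 20 of the probes past the threshold were at least 2-fold higher and 0 were at least 2-fold lower. The median difference over all tested probes was -0.01 and the median standard error (SE) was 0.0955. At an unadjusted p under 0.05, 3017 probes (21.5%) differed. The 3 combination arrays did not overlap the 3 Wnt3a arrays in 20% of probes, or in 34.8% after adjustment for the chip. With 3 arrays against 3 in random order, such separation has an exact probability of 0.1. The chip adjustment was fitted to these same arrays, so this probability does not apply to the adjusted share. The count rested heavily on the Wnt3a array that shared chip 2 with the combination: without Wnt3a array 1, 86 probes passed, 64 higher and 22 lower, and 82 of them were among the 648. No named gene past the threshold changed sign in any of the alternative analyses.

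The 15 genes with the largest rises were 1.15 to 1.87 higher with both ligands than with Wnt3a. These rises, and the 15 falls below, were taken only from genes whose combination and Wnt3a arrays stood apart after the chip adjustment. Separation of these arrays was therefore built into the choice and is given as a description. HAVCR2, which encodes the immune checkpoint receptor TIM-3, had log2 signals of 6.90, 6.98 and 7.25 with both ligands and 5.26, 5.23 and 5.52 with Wnt3a. VASH1, an inhibitor of angiogenesis that also removes tyrosine from tubulin, had 10.31, 10.17 and 10.28 with both ligands and 8.78, 8.44 and 8.86 with Wnt3a. UNC5B, a netrin receptor, had 6.16, 6.30 and 6.18 with both ligands and 4.68, 4.93 and 4.83 with Wnt3a. In all 3 genes every combination array lay more than 1 log2 unit above every Wnt3a array. HAVCR2 was 1.87 ± 0.14 higher (SE, adjusted p = 6.51e-05), VASH1 1.57 ± 0.12 higher (adjusted p = 6.51e-05) and UNC5B 1.55 ± 0.11 higher (adjusted p = 5.37e-05, limma). HAVCR2 was detected on 1 of 3 Wnt3a arrays, so its size depends on the background correction. UNC5B was detected on 0 of 3 Wnt3a arrays, so it was at least 1.75-fold higher with both ligands.

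GPR183, RGS2 and GRK5 were also among the 15. GPR183, an oxysterol receptor that guides B cells, had log2 signals of 7.46, 7.53 and 7.51 with both ligands and 6.32, 6.30 and 6.23 with Wnt3a. RGS2, which shortens signalling by Gq-coupled receptors, had 8.60, 8.72 and 8.69 with both ligands and 7.27, 7.58 and 7.81 with Wnt3a. GRK5, a kinase that desensitises G protein-coupled receptors, had 8.25, 8.09 and 8.27 with both ligands and 7.05, 6.94 and 6.81 with Wnt3a. The groups did not overlap in any of the 3 genes, which the choice of genes favoured. The differences were 1.30 ± 0.11 for GPR183 (adjusted p = 0.000116), 1.32 ± 0.12 for RGS2 (adjusted p = 0.000124) and 1.24 ± 0.10 for GRK5 (adjusted p = 7.07e-05, SE, limma).

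The remaining 9 of these rises were of like size. HIP1R, an adaptor of clathrin-coated pits, was 1.32 higher with both ligands than with Wnt3a, AGPAT4, an enzyme of phospholipid synthesis, was 1.34 higher, and AIM2, a sensor of cytosolic DNA, was 1.15 higher (adjusted p = 0.000123, 4.96e-05 and 0.000448, limma). The chemokine genes CCL4L1 and CCL4L2 were 1.38 and 1.33 higher, and the probes of these near-identical copies cannot be told to measure separate genes. CCL4L2 was detected on 1 Wnt3a array. HBZ, the embryonic zeta globin, was detected on 3 arrays with both ligands and on 0 with Wnt3a, and was at least 1.82-fold higher. CCDC46 (at least 1.48-fold higher) and the unnamed locus LOC644846 (at least 1.66-fold higher) were likewise detected on 0 Wnt3a arrays. LOC728014 was 1.20 higher. None of the 15 genes was a Wnt3a response, and all 15 stayed past the threshold in each of the 12 fits that left out 1 array.

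The 15 largest falls were smaller and more mixed. DDIT4, a stress-induced inhibitor of the growth kinase mTORC1, had log2 signals of 10.67, 10.60 and 10.57 with both ligands and 11.51, 11.49 and 11.41 with Wnt3a. ADM, which encodes the vasodilator adrenomedullin, had 8.06, 8.03 and 7.92 with both ligands and 8.92, 8.71 and 8.63 with Wnt3a. IRS1, the adaptor of the insulin receptor, had 5.43, 5.52 and 5.08 with both ligands and 6.43, 6.42 and 6.27 with Wnt3a. Every combination array lay below every Wnt3a array in all 3 genes, which the choice of genes again favoured. DDIT4 had a difference from Wnt3a of -0.97 ± 0.10 (adjusted p = 0.00031), that of ADM was -0.82 ± 0.09 (adjusted p = 0.000562) and that of IRS1 was -0.95 ± 0.13 (SE, adjusted p = 0.0028, limma). IRS1 lost its call without Wnt3a array 1 (-0.78, adjusted p = 0.0897), whereas DDIT4 and ADM passed in all 12 fits that left out 1 array. In the value table that the authors deposited, the differences were -0.93 for DDIT4, -0.56 for ADM and only -0.25 for IRS1. The size of the IRS1 fall, at low signals, thus depends on the processing.

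The other large falls included EPAS1 and KCTD12, described below with the Wnt3a responses, and the amino acid stress genes CHAC1, ATF3, SLC3A2 and ADM2. TIMP3, an inhibitor of matrix metalloproteinases, differed by -0.68 (adjusted p = 0.00325) and by -0.66 without Wnt3a array 1 (adjusted p = 0.0687). DCUN1D3, a regulator of cullin neddylation, differed by -0.72 (adjusted p = 0.0207) and by -0.54 without Wnt3a array 1 (adjusted p = 0.294). TRIM71, CASS4 and QKI were each detected on only 1 combination array, so their sizes (-0.84, -0.75 and -0.74) depend on the background correction, and each lost its call without Wnt3a array 1 (adjusted p = 0.0753, 0.0708 and 0.208). The other 2 QKI probes did not pass (-0.23 and -0.29, adjusted p = 0.412 and 0.107).

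**Figure D1:**
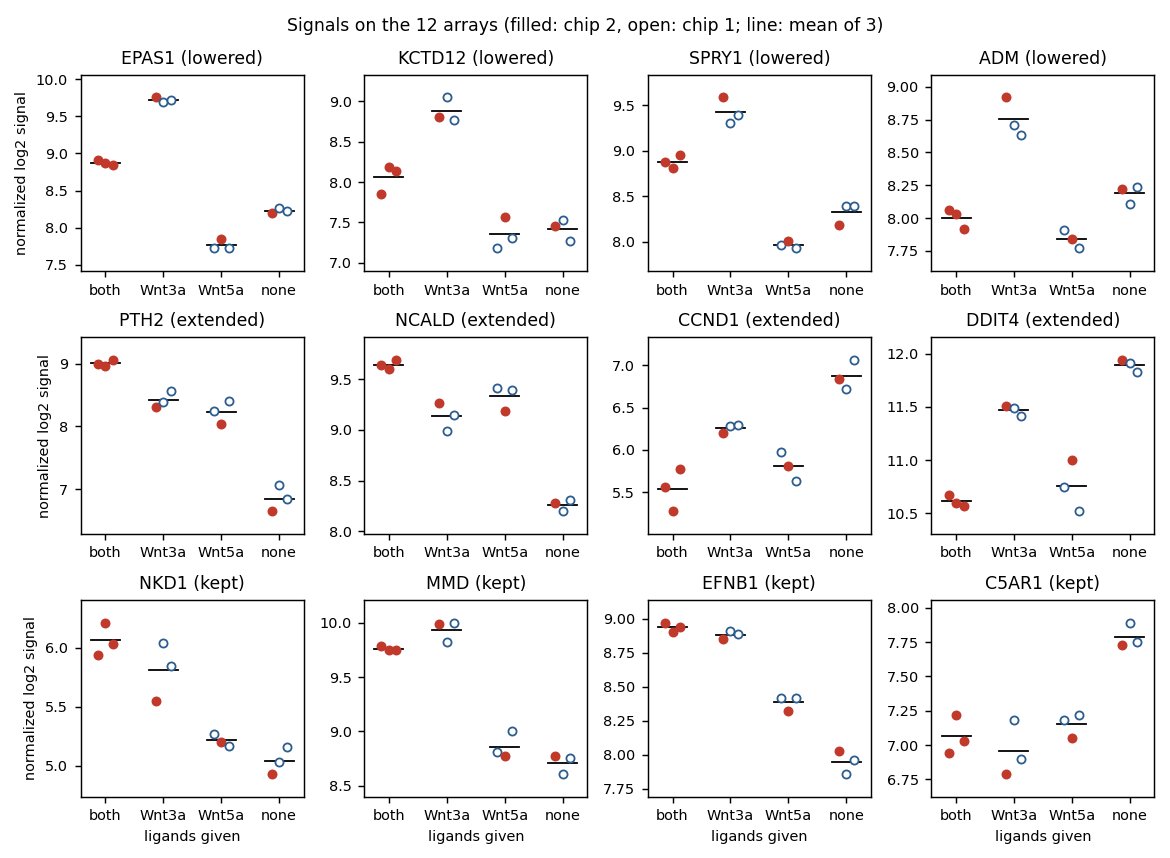
Normalized log2 signal (vertical axis) of 12 genes on each of the 12 arrays, in cells given both ligands, Wnt3a, Wnt5a or none (horizontal axis). Filled points are arrays of chip 2, open points arrays of chip 1 and lines the means of 3 arrays. The top row holds Wnt3a responses lowered by Wnt5a (EPAS1 at 8.85 to 8.91 with both ligands and 9.69 to 9.76 with Wnt3a), the middle row responses extended by Wnt5a and the bottom row responses kept.

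Whether Wnt5a acts in the same way with and without Wnt3a was tested directly. The effect of adding Wnt5a to Wnt3a and the effect of Wnt5a alone, Wnt5a against untreated cells, compare groups that share no arrays. The chip adjustment of the first effect, however, draws on the Wnt5a and untreated arrays as well. Its calls numbered 882 without Wnt5a array 1 and 480 without untreated array 1. Of the 390 probes that were higher with both ligands than with Wnt3a, 374 were also higher with Wnt5a alone, 210 of these past the threshold, and none was past it in the opposite direction. Of the 258 lower probes, 238 were also lower with Wnt5a alone, 100 of them past the threshold and again none in the opposite direction. Over all tested probes 64.62% had the same sign in both comparisons, and Wnt5a alone changed 737 probes (5.25%), 410 higher (2.92%) and 327 lower (2.33%). The 310 probes called in both made up 47.84% of the calls with Wnt3a present and 42.06% of the calls with Wnt5a alone.

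The difference between the 2 Wnt5a effects passed the threshold for 0 of 14051 probes (0%) in limma, with a smallest adjusted p of 0.262 and with 1099 probes (7.82%) at an unadjusted p under 0.05. Without background correction 8 probes passed this test and 1 did in the value table that the authors deposited. The SE of this difference had a median of 0.126, and the missing calls do not show that the effects are equal. The 15 largest rises were all past the threshold with Wnt5a alone too, by 0.82 to 1.85. HAVCR2 rose by 1.85 with Wnt5a alone and VASH1 by 1.34. The 15 largest falls were all lower with Wnt5a alone too (-1.14 to -0.06), 11 of them past the threshold. KCTD12 (-0.06), DCUN1D3 (-0.29), CASS4 (-0.22) and QKI (-0.46) were not past the threshold there.

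**Figure D2:**
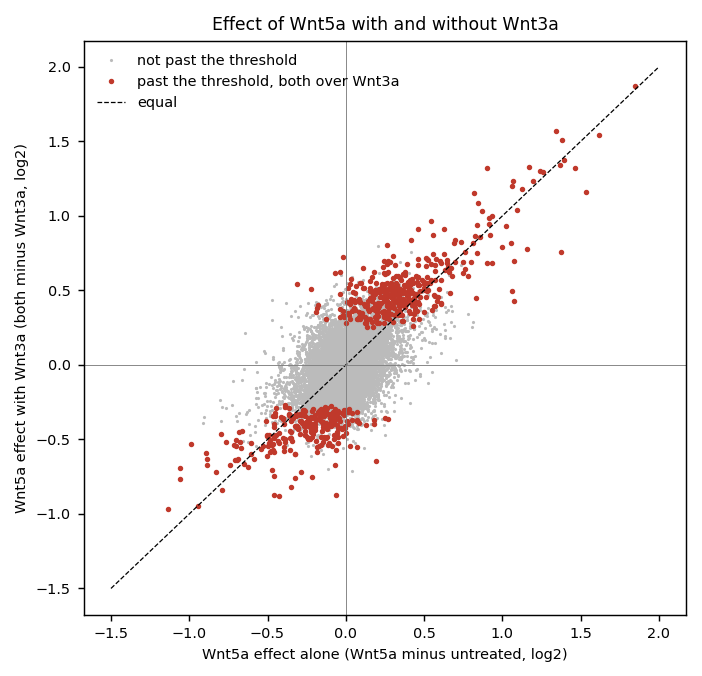
Log2 effect of Wnt5a in the presence of Wnt3a (both minus Wnt3a, vertical axis) against the log2 effect of Wnt5a alone (Wnt5a minus untreated, horizontal axis), 1 point for each of 14051 probes. Red points are the 648 probes past the threshold with both ligands against Wnt3a, and the dashed line marks equal effects. HAVCR2, the largest rise, lies near the line (1.85 and 1.87), and KCTD12 lies below it (-0.06 and -0.88).

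Wnt3a alone, against untreated cells, changed 213 probes (1.52%), 133 of them higher (0.947%) and 80 lower (0.569%). These 213 Wnt3a responses were sorted by what happened when Wnt5a was present too. A response was lowered where the combination differed from Wnt3a past the threshold in the opposite direction, extended where it did so in the same direction, and kept where it did not pass but the combination still differed from untreated cells in the Wnt3a direction. The comparison of the combination with Wnt3a and that of Wnt3a with untreated cells share the Wnt3a arrays with opposite signs, so chance error on these arrays adds to the lowered class, and the counts are given as descriptions.

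By these definitions Wnt5a lowered 46 responses (21.6%), extended 11 (5.164%) and kept 107 (50.23%), while 49 (23%) passed in neither comparison of the combination. Against untreated cells the combination changed 1092 probes in all (7.77%), 625 higher (4.45%) and 467 lower (3.32%). Without Wnt3a array 1 there were 96 Wnt3a responses, of which 9 were lowered, 2 extended and 60 kept. Of the 648 probes that Wnt5a changed, 591 were not Wnt3a responses, 376 of them higher and 215 lower with both ligands. Only 1.52% of all tested probes were Wnt3a responses, so a large share outside them follows from their number. Missing the Wnt3a threshold does not show that Wnt3a left a probe unchanged.

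The lowered class held 42 genes, and in 37 of its 46 probes Wnt3a had raised the signal. The median size of the Wnt3a effect was 0.4736, and the median difference that Wnt5a made was -0.5245 in the direction of the Wnt3a effect. With both ligands 10 of the 46 probes still differed from untreated cells in the Wnt3a direction, 3 differed in the opposite direction and 33 were not past that threshold. Wnt5a alone moved 18 of the 46 past the threshold against the Wnt3a direction and the other 28 in neither direction.

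EPAS1, which encodes the hypoxia-inducible factor HIF-2 alpha, was the largest of these responses. Its log2 signals were 8.91, 8.87 and 8.85 with both ligands, 9.76, 9.69 and 9.72 with Wnt3a, 7.72, 7.84 and 7.73 with Wnt5a and 8.19, 8.27 and 8.22 in untreated cells. No groups overlapped: the combination lay between Wnt3a above and untreated cells below, with Wnt5a lowest. Wnt3a raised EPAS1 by 1.5 (adjusted p = 1.05e-07), the combination differed from Wnt3a by -0.87 ± 0.07 (SE, adjusted p = 6.51e-05, limma), and 41.7% of the Wnt3a effect on the log2 scale was left.

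KCTD12, an auxiliary subunit of GABA-B receptors, had log2 signals of 7.85, 8.18 and 8.14 with both ligands, 8.80, 9.05 and 8.77 with Wnt3a, 7.18, 7.57 and 7.31 with Wnt5a and 7.45, 7.53 and 7.27 in untreated cells. Wnt5a alone left no difference past the threshold (-0.06, adjusted p = 0.855), yet with Wnt3a present the difference was -0.88 ± 0.14 (SE, adjusted p = 0.00546, limma). The difference between these 2 effects, -0.81, had an unadjusted p of 0.000845 and an adjusted p of 0.364. SPRY1, a feedback inhibitor of receptor tyrosine kinase signalling, had 8.88, 8.81 and 8.95 with both ligands, 9.59, 9.31 and 9.39 with Wnt3a, 7.97, 8.01 and 7.93 with Wnt5a and 8.19, 8.39 and 8.40 in untreated cells. The combination kept 48.5% of the Wnt3a effect on SPRY1, and the difference from Wnt3a was -0.57 ± 0.10 (SE, adjusted p = 0.00815, limma). All 3 SPRY1 probes passed with the same sign. SPRY1 lost its call without Wnt3a array 1 (-0.39, adjusted p = 0.178), whereas EPAS1 (-0.87) and KCTD12 (-1.04) passed without it.

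ADM was a Wnt3a response that the combination reversed in direction without passing the threshold. Its log2 signals were 8.06, 8.03 and 7.92 with both ligands, 8.92, 8.71 and 8.63 with Wnt3a, 7.91, 7.84 and 7.77 with Wnt5a and 8.22, 8.11 and 8.24 in untreated cells. Wnt3a raised it by 0.56 (adjusted p = 0.00261), and the combination differed from untreated cells by -0.25 (adjusted p = 0.112, limma). GADD45A, a growth arrest gene induced by DNA damage, was raised by 0.45 with Wnt3a and was 0.05 above untreated cells with both ligands. The fall between them was -0.40 (adjusted p = 0.0117), and its second probe gave -0.54. Without Wnt3a array 1 the first probe gave -0.46 (adjusted p = 0.0906).

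Other Wnt3a responses that Wnt5a lowered were CEMIP2, a surface protein linked to hyaluronan breakdown, CRHBP, which binds corticotropin-releasing hormone, FERMT1, an integrin activator of the kindlin family, TMEM158, a transmembrane protein induced by Ras, and MYCN. Their differences from Wnt3a were -0.51, -0.39, -0.55, -0.50 and -0.35, and the combination still lay 0.28 to 0.47 above untreated cells in all 5, past the threshold in 4 and not in FERMT1 (adjusted p = 0.0968). CITED4, a co-activator of CBP and p300, was detected on 0 combination arrays and 3 Wnt3a arrays, and was at least 1.15-fold lower with both ligands. These 6 genes lost their call without Wnt3a array 1, with values of -0.34 to -0.50 and adjusted p of 0.119 to 0.272. The second MYCN probe gave -0.14 with both ligands against Wnt3a (adjusted p = 0.347).

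Wnt3a also lowered some genes, and Wnt5a raised 9 such probes back. CCL2, a chemokine that attracts monocytes, had log2 signals of 11.63, 11.67 and 11.64 with both ligands, 10.93, 10.89 and 10.87 with Wnt3a, 11.79, 11.75 and 11.71 with Wnt5a and 11.37, 11.24 and 11.26 in untreated cells. SMAD6, an inhibitor of BMP signalling, had 11.53, 11.43 and 11.45 with both ligands, 10.62, 10.64 and 10.69 with Wnt3a, 11.64, 11.43 and 11.52 with Wnt5a and 10.96, 10.91 and 11.05 in untreated cells. In both genes the Wnt3a arrays were the lowest of all 12 and the combination lay above untreated cells. The combination was higher than Wnt3a by 0.71 ± 0.07 for CCL2 (adjusted p = 0.000151) and by 0.87 ± 0.08 for SMAD6 (SE, adjusted p = 0.000123, limma), and higher than untreated cells by 0.32 and 0.55 (adjusted p = 0.013 and 0.00134). Both passed in all 12 fits that left out 1 array.

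FOXA2, a pioneer transcription factor of endoderm, fell by 0.68 with Wnt3a, and the combination was 0.36 higher than Wnt3a (adjusted p = 0.0294) but still -0.33 from untreated cells (adjusted p = 0.0302, limma). ENG, the TGF-beta co-receptor endoglin, had log2 signals of 7.36, 7.52 and 7.37 with both ligands, 7.08, 7.10 and 7.03 with Wnt3a, 7.50, 7.43 and 7.45 with Wnt5a and 7.50, 7.34 and 7.48 in untreated cells. The Wnt3a arrays stood below the other 3 groups, which overlapped, and the combination was 0.33 higher than Wnt3a (adjusted p = 0.036). Without Wnt3a array 1 neither FOXA2 (0.29, adjusted p = 0.309) nor ENG (0.33, adjusted p = 0.255) passed.

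The extended class held 11 probes of 10 genes, 5 of the probes raised and 6 lowered by Wnt3a. Wnt5a alone moved all 11 past the threshold in the same direction, but the effects of Wnt5a alone and Wnt3a alone share the untreated arrays, and chance error on these moves both effects the same way. PTH2, which encodes the neuropeptide TIP39, had log2 signals of 9.0, 8.96 and 9.06 with both ligands, 8.31, 8.39 and 8.56 with Wnt3a, 8.24, 8.04 and 8.40 with Wnt5a and 6.65, 7.06 and 6.84 in untreated cells. The single ligands overlapped each other, and the combination lay above both. The combination was higher than Wnt3a by 0.75 ± 0.09 (adjusted p = 0.00092), than Wnt5a by 0.95 ± 0.09 (adjusted p = 0.00104) and than untreated cells by 2.32 (SE, adjusted p = 1.04e-07, limma).

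NCALD, a neuronal calcium sensor, had log2 signals of 9.64, 9.60 and 9.69 with both ligands, 9.27, 8.99 and 9.15 with Wnt3a, 9.41, 9.19 and 9.39 with Wnt5a and 8.28, 8.20 and 8.31 in untreated cells. Again the combination lay above every other array, 0.50 ± 0.10 over Wnt3a (SE, adjusted p = 0.0153, limma), and it passed without Wnt3a array 1 (0.66). Of its other probes, 1 passed too (0.43) and 1 did not (0.21, adjusted p = 0.345). RYR1, a calcium release channel, was detected on 3 arrays with both ligands, 3 with Wnt5a and 0 in the other 2 groups, and was at least 1.35-fold higher with both ligands than with Wnt3a. Its Wnt3a effect lies between 2 groups not above background, so its place in the extended class was not measured. FAM53A was 0.31 higher than with Wnt3a (adjusted p = 0.0276), its second probe gave 0.11 (adjusted p = 0.698), and the first gave 0.32 without Wnt3a array 1 (adjusted p = 0.21).

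Among the genes lowered by each ligand, CCND1, the G1 cyclin D1, had log2 signals of 5.56, 5.28 and 5.77 with both ligands, 6.20, 6.28 and 6.30 with Wnt3a, 5.98, 5.81 and 5.64 with Wnt5a and 6.84, 6.72 and 7.06 in untreated cells. The combination lay below every Wnt3a array and overlapped the Wnt5a arrays. Its difference from Wnt3a was -0.69 ± 0.15 (SE, adjusted p = 0.0207, limma), and -0.74 without Wnt3a array 1 (adjusted p = 0.167). DDIT4 followed the same order, at 10.75, 11.00 and 10.52 with Wnt5a and 11.94, 11.91 and 11.83 in untreated cells. IL1B, the inflammatory cytokine interleukin-1 beta, had 7.90, 7.82 and 7.91 with both ligands, 8.39, 8.22 and 8.17 with Wnt3a, 8.22, 8.23 and 8.10 with Wnt5a and 8.71, 8.67 and 8.53 in untreated cells, so that the combination was below every other array. The IL1B difference from Wnt3a was -0.47 ± 0.08 (SE, adjusted p = 0.00582, limma), and -0.41 without Wnt3a array 1 (adjusted p = 0.125). ETV5, an ETS factor downstream of ERK (-0.53), CD300A, an inhibitory receptor (-0.45), and KCNK5, a potassium channel (-0.33), were lower too (adjusted p = 0.0139, 0.00933 and 0.0255), and none of these 3 passed without Wnt3a array 1 (-0.56, -0.52 and -0.36, adjusted p = 0.13, 0.0609 and 0.164). The second ETV5 probe did not pass (-0.19, adjusted p = 0.313).

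**Figure D3:**
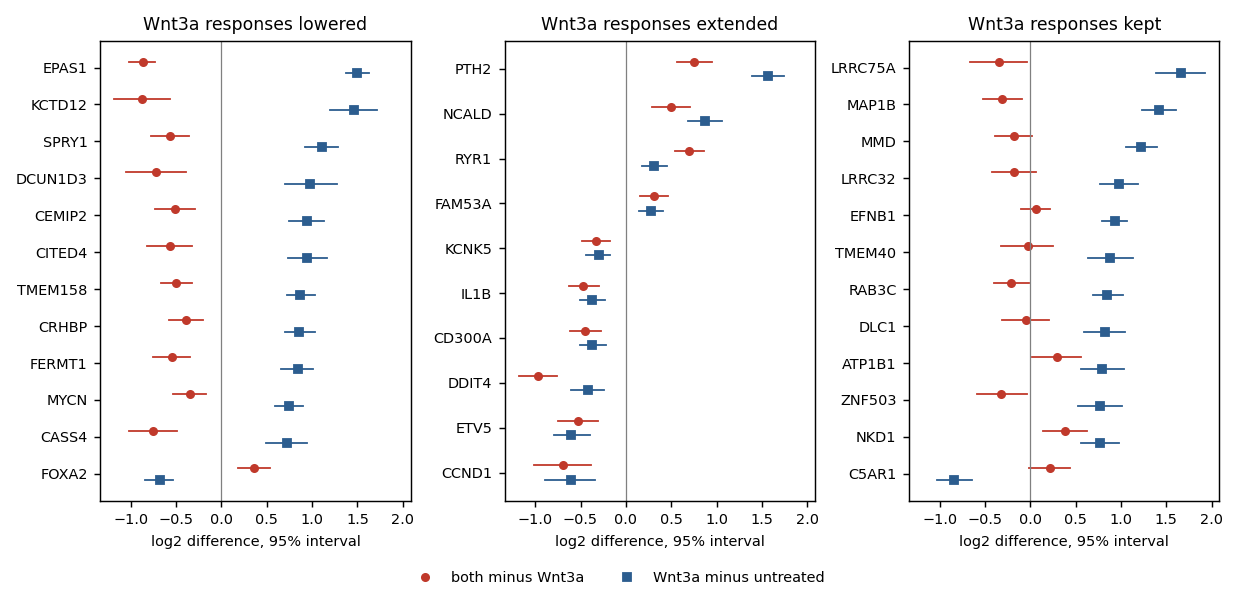
Log2 differences with 95% intervals (horizontal axis) for the genes with the largest Wnt3a effects in the lowered, extended and kept classes, 12, 10 and 12 genes. Red points are both ligands minus Wnt3a and blue squares Wnt3a minus untreated. The red and blue signs are opposite in the lowered panel (EPAS1 at -0.87 and 1.5) and the same in the extended panel (PTH2 at 0.75 and 1.57), as the definitions of the classes require, and in the kept panel the red interval of EFNB1 reaches from -0.10 to 0.22.

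The kept class was the largest, with 107 probes of 97 genes, 62 raised and 45 lowered by Wnt3a. Wnt5a alone moved 53 of the 107 past the threshold in the Wnt3a direction, and the other 54 in neither direction. A kept signal can thus come from either ligand. Wnt3a and the combination were each set against the same untreated arrays, so chance error on these arrays adds to the kept class. Missing the threshold does not show that a gene was the same with and without Wnt5a, so the 95% interval of each named difference is given. MMD, a membrane protein that rises as monocytes mature into macrophages, had log2 signals of 9.79, 9.75 and 9.75 with both ligands, 9.99, 9.82 and 10.00 with Wnt3a, 8.81, 8.77 and 9.0 with Wnt5a and 8.77, 8.61 and 8.76 in untreated cells. Wnt5a alone did not move it past the threshold (0.14, adjusted p = 0.399), and with Wnt3a the difference was -0.18, with an interval of -0.39 to 0.02. The combination was still 1.04 above untreated cells (adjusted p = 8.06e-05, limma).

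EFNB1, the ligand ephrin-B1, had log2 signals of 8.97, 8.90 and 8.94 with both ligands, 8.85, 8.91 and 8.89 with Wnt3a, 8.42, 8.32 and 8.42 with Wnt5a and 8.03, 7.86 and 7.96 in untreated cells. Each ligand raised EFNB1 (0.93 with Wnt3a, adjusted p = 1.32e-05, and 0.44 with Wnt5a, adjusted p = 0.0017, limma), and the combination overlapped Wnt3a, with a difference of 0.06 and an interval of -0.10 to 0.22. C5AR1, the receptor of the complement fragment C5a, had 6.94, 7.22 and 7.03 with both ligands, 6.79, 7.18 and 6.90 with Wnt3a, 7.18, 7.05 and 7.22 with Wnt5a and 7.73, 7.89 and 7.75 in untreated cells. The 3 treated groups overlapped one another and all lay below untreated cells. The combination differed from Wnt3a by 0.22 (interval -0.01 to 0.44). Wnt5a alone gave -0.64, and the difference between the 2 Wnt5a effects, 0.86, had an unadjusted p of 4.22e-05 and an adjusted p of 0.262.

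Other kept responses with large Wnt3a effects were LRRC75A (1.66), MAP1B, a microtubule-associated protein of neurons (1.42), LRRC32, which tethers latent TGF-beta (0.98), TMEM40 (0.88), RAB3C, a GTPase of secretory vesicles (0.85), DLC1, a GTPase-activating protein (0.82), ATP1B1, a subunit of the sodium pump (0.79), and ZNF503 (0.77). Intervals of their differences between both ligands and Wnt3a ended within -0.66 and 0.56. Those of LRRC75A (-0.66 to -0.04), MAP1B (-0.52 to -0.09), RAB3C (-0.40 to -0.01), ZNF503 (-0.59 to -0.04) and ATP1B1 (0.02 to 0.56) did not include 0, although none passed the adjusted threshold (adjusted p = 0.102 to 0.204, limma). MAP1B passed with a replicate block (-0.36, adjusted p = 0.0327), and LRRC75A passed without background correction (-0.26, adjusted p = 0.0213), in the authors' deposited table (-0.18, adjusted p = 0.0222) and without untreated array 1 (-0.49, adjusted p = 0.0176), so these 2 genes can also be read as lowered. ATP1B1 and DLC1 were raised by Wnt5a alone as well (0.67 and 0.55, adjusted p = 0.00301 and 0.008).

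Against Wnt5a alone, the combination changed 17 of 14051 probes (0.121%), and all 17 were higher. The groups of this comparison share no arrays with Wnt3a against untreated cells, but its chip adjustment draws on those arrays. EPAS1 (1.08), LRRC75A (1.17), PTH2 (0.95), MMD (0.90), SPRY1 (0.89), MAP1B (0.81), RAB3C (0.73) and EFNB1 (0.55) were among the genes that passed (adjusted p = 2.49e-05 to 0.00723, limma).

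The core Wnt pathway was set out in lists of its parts, counting a gene as changed where 1 of its tested probes passed. Over all 10717 tested genes, 361 (3.37%) were higher and 242 (2.26%) lower with both ligands than with Wnt3a. The members and lists were chosen with earlier results of these data known. Of 27 receptors and ligands 9 were tested and 1 changed: LRP5, the co-receptor of Frizzled, had log2 signals of 7.79, 7.94 and 7.85 with both ligands, 7.24, 7.29 and 7.18 with Wnt3a, 7.94, 7.82 and 7.96 with Wnt5a and 7.28, 7.30 and 7.19 in untreated cells. The groups given Wnt5a stood apart from those that were not, and the difference from Wnt3a was 0.64 ± 0.08 (SE, adjusted p = 0.000945, limma). The second LRP5 probe gave 0.06 (adjusted p = 0.799), so the 2 probes disagree. The median difference of the 9 genes was -0.06.

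Of 13 feedback inhibitors on the array 4 were tested, and they went different ways. NKD1, which binds Dishevelled and restrains the pathway, had log2 signals of 5.94, 6.21 and 6.03 with both ligands, 5.55, 6.04 and 5.84 with Wnt3a, 5.27, 5.2 and 5.17 with Wnt5a and 4.93, 5.03 and 5.16 in untreated cells. It was detected on all 6 arrays given Wnt3a and on 0 of the other 6, so it was at least 1.27-fold higher with Wnt3a than in untreated cells. The combination overlapped Wnt3a (0.38, interval 0.14 to 0.62, adjusted p = 0.0723), and passed without Wnt3a array 2 (0.44, adjusted p = 0.0478). NKD2, its relative, had 7.53, 7.66 and 7.60 with both ligands, 6.94, 7.31 and 7.08 with Wnt3a, 7.70, 7.55 and 7.63 with Wnt5a and 7.02, 7.0 and 7.02 in untreated cells. NKD2 was thus high where Wnt5a had been given, and the difference from Wnt3a was 0.57 ± 0.09 (SE, adjusted p = 0.00538, limma).

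TNFRSF19, a TNF receptor family member and TCF target also called TROY, ran the other way, with log2 signals of 7.93, 7.59 and 7.77 with both ligands, 8.47, 8.38 and 8.38 with Wnt3a, 7.64, 7.43 and 7.50 with Wnt5a and 8.09, 8.07 and 8.16 in untreated cells. Its difference from Wnt3a was -0.63 ± 0.10 (SE, adjusted p = 0.00538, limma). ZNRF3, a ligase that removes Frizzled from the surface, was detected on 0 combination arrays and 1 Wnt3a array, and no fold is given. Without Wnt3a array 1 neither NKD2 (0.46, adjusted p = 0.13) nor TNFRSF19 (-0.54, adjusted p = 0.124) passed.

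Of 13 tested members of the TCF/LEF and beta-catenin complex 1 changed. LEF1, the TCF/LEF factor, had log2 signals of 8.95, 9.17 and 9.07 with both ligands, 9.54, 9.49 and 9.53 with Wnt3a, 8.95, 9.11 and 8.98 with Wnt5a and 9.23, 9.36 and 9.19 in untreated cells. The Wnt3a arrays were the highest of the 4 groups, although Wnt3a against untreated cells did not pass (0.26, adjusted p = 0.147), and the combination was lower than Wnt3a, at -0.48 ± 0.09 (SE, adjusted p = 0.00971, limma). A second LEF1 probe gave -0.49 (adjusted p = 0.0089). Without Wnt3a array 1 LEF1 gave -0.49 with an adjusted p of 0.124. The other 12, beta-catenin (CTNNB1, -0.14), GSK3B (0.07), AXIN1 (0.13), CSNK1A1 (-0.15), BTRC (-0.02), FBXW11 (-0.05), BCL9 (0.02), PYGO2 (-0.24), CTBP1 (0.14), TLE3 (-0.24), TLE4 (-0.07) and TLE5 (0.12), gave adjusted p of 0.18 to 0.936.

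Of 15 tested target genes of the canonical pathway, 4 were lower and 1 was higher with both ligands than with Wnt3a, with a list median of -0.01. Over all genes 2.26% were lower and 3.37% higher. The lower genes were CCND1, MYCN (9.56, 9.71 and 9.62 with both ligands, 9.93, 9.99 and 9.95 with Wnt3a), CCND2, a second D-type cyclin (-0.29, adjusted p = 0.0367), and the transcription factor MYC (-0.29, adjusted p = 0.0378, limma). The second probes of CCND2 and MYC did not pass (both -0.24, adjusted p = 0.0792 and 0.107). Wnt3a alone had raised MYCN by 0.74 and gave -0.61 for CCND1. ABCB1, the drug efflux pump, was 0.42 higher (adjusted p = 0.0155), and its second probe gave 0.68. With Wnt3a array 1 left out, none of these 5 genes passed (adjusted p = 0.129 for ABCB1 and 0.142 to 0.317 for the others). Of 30 tested genes of the planar polarity and calcium arm, 1 was higher and 1 lower. NFATC1, the calcium-activated transcription factor, had 8.04, 7.89 and 7.86 with both ligands, 7.29, 7.25 and 7.43 with Wnt3a, 8.18, 7.97 and 8.09 with Wnt5a and 7.31, 7.40 and 7.61 in untreated cells, and was 0.70 ± 0.09 higher than with Wnt3a (SE, adjusted p = 0.00166, limma). PPP3R1, the regulatory subunit of calcineurin, differed by -0.35 (adjusted p = 0.0464) and lost its call without Wnt3a array 1 (-0.24, adjusted p = 0.435).

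The group with the most falls was the amino acid stress response, the genes that the transcription factor ATF4 and its partners induce when amino acids run short or unfolded proteins build up. Of its 34 tested genes, 17 were lower with both ligands than with Wnt3a and 0 were higher, against 2.26% lower over all genes. The list median was -0.33, and that of all tested genes was -0.00. Against untreated cells 22 of the 34 were lower and 1 higher with both ligands (all genes 3.97% and 5.15%), 21 were lower with Wnt5a alone (all genes 2.66%), and 2 were lower with Wnt3a alone (all genes 0.681%). Leaving out Wnt3a array 1, the count with both ligands was 6 genes, and over the 12 fits that left out 1 array it ran from 6 to 18. Among the alternatives it was 0 on chip 2 alone, 8 on the 6 arrays of the comparison alone and 21 without background correction, where 1 gene was higher.

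The regulators of this response fell as follows. ATF3 had log2 signals of 7.64, 7.69 and 7.64 with both ligands, 8.39, 8.28 and 8.21 with Wnt3a, 7.82, 7.90 and 7.52 with Wnt5a and 8.57, 8.55 and 8.59 in untreated cells. DDIT3, which encodes the stress factor CHOP, had 7.73, 7.76 and 7.75 with both ligands, 8.27, 8.41 and 8.36 with Wnt3a, 7.81, 7.99 and 7.65 with Wnt5a and 8.55, 8.62 and 8.40 in untreated cells. CEBPB, a partner of ATF4, had 11.26, 11.17 and 11.24 with both ligands, 11.85, 11.76 and 11.79 with Wnt3a, 11.24, 11.32 and 11.09 with Wnt5a and 12.08, 11.84 and 11.94 in untreated cells. In all 3 genes the arrays given Wnt5a, with or without Wnt3a, lay below every array that was not. The differences from Wnt3a were -0.72 ± 0.09 for ATF3 (adjusted p = 0.00145), -0.64 ± 0.10 for DDIT3 (adjusted p = 0.00505) and -0.67 ± 0.08 for CEBPB (SE, adjusted p = 0.000585, limma), and all 3 passed in all 12 fits that left out 1 array. ATF4 itself did not pass (-0.17 and -0.05 for its 2 probes, adjusted p = 0.258 and 0.741).

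TRIB3, a pseudokinase that feeds back on ATF4, had log2 signals of 8.27, 8.08 and 8.22 with both ligands and 8.85, 8.68 and 8.69 with Wnt3a, a difference of -0.63 (adjusted p = 0.00517). CHAC1, which breaks down glutathione, had 5.6, 5.43 and 5.18 with both ligands and 6.25, 6.07 and 6.34 with Wnt3a, a difference of -0.77 (adjusted p = 0.0115). SLC3A2, the heavy chain of amino acid transporters, had 6.80, 6.81 and 6.62 with both ligands and 7.36, 7.15 and 7.08 with Wnt3a, a difference of -0.71 (adjusted p = 0.00111, limma). The groups did not overlap in these 3 genes, and CHAC1 and SLC3A2 were among the falls chosen for separate arrays. The other 2 SLC3A2 probes gave -0.24 and -0.36 and did not pass (adjusted p = 0.0922 and 0.106). ADM2, a relative of adrenomedullin, differed by -0.67 (adjusted p = 0.000945). In the fit lacking Wnt3a array 1, TRIB3 gave -0.59 (adjusted p = 0.106) and CHAC1 -0.67 (adjusted p = 0.187), while SLC3A2 (-0.82) and ADM2 (-0.82) passed. The authors' deposited table gave -0.19 for CHAC1, -0.44 for TRIB3, -0.31 for SLC3A2 and -0.39 for ADM2, so these sizes depend on the processing.

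ASNS, PSAT1, GPT2, MTHFD2, PCK2, SLC7A1, SLC1A4 and ATF5 complete the count with DDIT4 and SESN2, and are named after their values were seen. ASNS, which makes asparagine, differed by -0.49 (adjusted p = 0.00505), and its second probe gave 0.15 (adjusted p = 0.865), so its probes disagree. PSAT1, of serine synthesis, differed by -0.50 (adjusted p = 0.00729), GPT2, an alanine transaminase, by -0.55 (adjusted p = 0.00452), and the other 5 by -0.58 to -0.30. SESN2 was detected on 1 combination array. Of the transfer RNA charging enzymes, which the same pathway induces, 2 of 20 tested were lower and 0 higher (list median -0.12). Over all genes 2.26% were lower and 3.37% higher. The count of lower enzymes was 0 without the chip term and with median scaling, and 5 without background correction. The enzymes that passed were WARS1 (-0.30, adjusted p = 0.0245, with a second probe at -0.12, adjusted p = 0.407) and CARS, now CARS1 (-0.48, adjusted p = 0.0364, limma). Neither passed without Wnt3a array 1 (-0.29 and -0.41, adjusted p = 0.224 and 0.33).

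Promoters of these genes were read from RefSeq (GRCh38.p14), from 250 bases before to 50 bases after the annotated start. Other annotated starts of a gene, where it had any, were not searched. Which start these cells used was not tested. Promoters were matched for 8035 of the 10717 tested genes and for 16 of the 17 stress genes that fell. The amino acid response element, a composite site bound by ATF4 and C/EBP proteins, was searched as TGATGNAA on both strands. It was held by 1.8% of promoters of tested genes, by 3.7% of all 27305 promoters, by 4.5% of those of genes lower with both ligands than with Wnt3a, by 1.1% of those of genes higher, and by 5 of the 16 stress genes that fell (31.2%). These 5 were ASNS, ATF3, CHAC1, SLC3A2 and SLC7A1. They were also the only matches among the 29 promoters of all tested stress genes (17.2%), and they are part of the 4.5%. The list is made of genes that ATF4 and its partners induce, so its share describes the list and not the falls. In SLC3A2, on the opposite strand, and in SLC7A1 the match begins at base 38 and base 8 after the start. The sequence CTTTGAT, a TCF/LEF element, was held by 3 of 89 promoters of genes that Wnt3a raised (3.4%), against 1.5% of tested genes and 2.6% of all promoters. Its last letters, TGAT, also begin TGATGNAA, and matches shared by these elements were not counted. The core of the hypoxia response element, GACGTG, was held by 10.0% of promoters of genes lower with both ligands, against 11.0% of tested genes. A match is a description of these letters and not a site. Below are the 250 bases before the start of the 3 genes with a match upstream, 5′ to 3′ on the strand of the gene, because the stress genes held the most falls of any list. Capitals mark the match, 68, 191 and 209 bases before the start, and in CHAC1 it is on the opposite strand.
ASNS (chr7:97872409-97872658, minus strand): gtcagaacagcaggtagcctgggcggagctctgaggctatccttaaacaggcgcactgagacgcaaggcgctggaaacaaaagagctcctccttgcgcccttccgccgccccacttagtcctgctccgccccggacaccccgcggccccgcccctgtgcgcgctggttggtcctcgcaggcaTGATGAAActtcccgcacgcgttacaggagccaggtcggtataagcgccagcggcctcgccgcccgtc
ATF3 (chr1:212565157-212565406, plus strand): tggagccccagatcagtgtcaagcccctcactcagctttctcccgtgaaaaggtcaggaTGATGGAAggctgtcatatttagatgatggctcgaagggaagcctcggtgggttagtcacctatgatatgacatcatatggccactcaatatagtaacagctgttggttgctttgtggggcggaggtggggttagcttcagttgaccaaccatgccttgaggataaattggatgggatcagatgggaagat
CHAC1 (chr15:40953221-40953470, plus strand): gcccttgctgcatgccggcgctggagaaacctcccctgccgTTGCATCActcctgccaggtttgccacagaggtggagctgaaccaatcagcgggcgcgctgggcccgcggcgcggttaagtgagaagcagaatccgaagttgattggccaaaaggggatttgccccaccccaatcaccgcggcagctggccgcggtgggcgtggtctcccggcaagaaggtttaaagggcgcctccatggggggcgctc

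Of 28 tested genes of the unfolded protein response, 3 were lower and 0 higher with both ligands than with Wnt3a (list median -0.04). Over all genes 2.26% were lower and 3.37% higher. XBP1, its transcription factor, had log2 signals of 11.75, 11.65 and 11.83 with both ligands, 12.31, 12.34 and 12.21 with Wnt3a, 11.58, 11.87 and 11.58 with Wnt5a and 12.42, 12.28 and 12.38 in untreated cells. HERPUD1, of the degradation machinery of the endoplasmic reticulum, had 7.82, 7.84 and 7.83 with both ligands, 8.52, 8.14 and 8.15 with Wnt3a, 7.83, 7.95 and 7.74 with Wnt5a and 8.50, 8.26 and 8.27 in untreated cells. Both were lower wherever Wnt5a had been given. Their differences from Wnt3a were -0.63 ± 0.09 (adjusted p = 0.00245) and -0.61 ± 0.07 (SE, adjusted p = 0.000787, limma), a second probe of each passed with the same sign, and both genes passed in all 12 fits that left out 1 array. PDIA6, a protein folding enzyme, differed by -0.31 (adjusted p = 0.0472) and lost its call without Wnt3a array 1 (-0.21, adjusted p = 0.446).

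Of 34 tested genes of hypoxia and glycolysis, 5 were lower and 1 higher (all genes 2.26% and 3.37%, list median -0.08). Beside EPAS1 and ADM the lower genes were HK2, the hexokinase that starts glycolysis (6.70, 6.43 and 6.59 with both ligands, 6.99, 7.21 and 7.01 with Wnt3a, a difference of -0.46, adjusted p = 0.018), ANKRD37 (-0.34, adjusted p = 0.0155) and the glucose transporter SLC2A3 (-0.27, adjusted p = 0.0429). PFKFB3, which sets the level of a glycolytic activator, was 0.26 higher (adjusted p = 0.0433, limma), but its second probe gave 0.01 (adjusted p = 0.961). Only EPAS1 and ADM of these 6 passed without Wnt3a array 1, the other 4 having adjusted p of 0.109 to 0.262. Of 25 tested genes of insulin and mTOR signalling, 3 were lower (DDIT4, IRS1 and SESN2) and 1 higher, the kinase RPS6KB1 (0.37, adjusted p = 0.0417, and 0.376 without Wnt3a array 1), with a list median of -0.04.

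Of 21 tested chemokine and NF-kB feedback genes, 6 were higher and 1, IL1B, was lower with both ligands than with Wnt3a, against 3.37% and 2.26% over all genes, with a list median of 0.06. CCL2, CCL3, CCL4L1 and CCL4L2 are chemokines. CCL3 was detected on 3 combination arrays and 1 Wnt3a array (0.79, adjusted p = 0.00729). NFKBIA, the inhibitor that NF-kB itself induces, had log2 signals of 10.61, 10.48 and 10.61 with both ligands, 10.14, 10.06 and 10.07 with Wnt3a, 10.70, 10.61 and 10.71 with Wnt5a and 10.30, 10.18 and 10.40 in untreated cells. BIRC3, an inhibitor of cell death and another NF-kB target, had 8.27, 8.50 and 8.31 with both ligands, 7.74, 8.00 and 8.08 with Wnt3a, 8.39, 8.36 and 8.60 with Wnt5a and 7.92, 7.93 and 8.09 in untreated cells. Arrays given Wnt5a lay above those without it in both genes, and the differences from Wnt3a were 0.48 ± 0.08 (adjusted p = 0.00843) and 0.54 ± 0.10 (SE, adjusted p = 0.0117, limma). When Wnt3a array 1 was left out, 3 genes of the list were higher, CCL2 and both CCL4L genes, while CCL3 (0.69, adjusted p = 0.146), NFKBIA (0.54, adjusted p = 0.0687) and BIRC3 (0.43, adjusted p = 0.21) did not pass.

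Of 25 tested regulators of G protein signalling, 5 were higher and 2 lower (all genes 3.37% and 2.26%, list median 0.09). GPR183, RGS2 and GRK5 were described above. RGS19 and RGS10, which speed the shutdown of Gi signalling, were 0.33 and 0.28 higher (adjusted p = 0.0255 and 0.0481). F2RL2, the thrombin receptor PAR3, and ARRB2, beta-arrestin, were lower, with -0.31 and -0.35 (adjusted p = 0.0292 and 0.0328, limma). The last 4 lost their calls without Wnt3a array 1 (0.35, 0.19, -0.24 and -0.26, adjusted p = 0.189, 0.444, 0.325 and 0.363). The second RGS10 probe gave 0.19 with all arrays (adjusted p = 0.186).

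Of 23 tested genes of BMP and TGF-beta signalling, 3 were higher (SMAD6, ENG and ID3) and 1 lower, with a list median of 0.04. Over all genes 3.37% were higher and 2.26% lower. ID3, a BMP target that blocks differentiation factors, had log2 signals of 7.44, 7.62 and 7.73 with both ligands, 6.75, 6.73 and 6.68 with Wnt3a, 7.91, 7.83 and 7.80 with Wnt5a and 6.95, 6.67 and 6.75 in untreated cells. The combination lay between Wnt5a above and the 2 groups without Wnt5a below, which overlapped, and was 0.82 ± 0.10 higher than Wnt3a (SE, adjusted p = 0.000814, limma). SMAD3, which carries TGF-beta signals, was lower (-0.34, adjusted p = 0.0417) and did not pass without Wnt3a array 1 (-0.38, adjusted p = 0.213). Of 33 tested genes of ERK feedback and the immediate early response, 4 were lower (SPRY1, ETV5, MYC and ATF3) and 2 higher, with a list median of -0.03. The higher ones were DUSP2, a phosphatase of ERK (0.43, adjusted p = 0.0228, and 0.58 without Wnt3a array 1, adjusted p = 0.0479), and the nuclear receptor NR4A2 (0.45, adjusted p = 0.0365, and 0.28 without Wnt3a array 1, adjusted p = 0.426). The second NR4A2 probe gave 0.34 with all arrays (adjusted p = 0.0819).

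Among 23 tested survival and death genes 2 were higher and 2 lower (all genes 3.37% and 2.26%, list median -0.08). BMF, which promotes cell death by binding BCL2 proteins, had log2 signals of 8.72, 8.80 and 8.81 with both ligands, 8.18, 8.13 and 8.09 with Wnt3a, 8.82, 8.73 and 8.79 with Wnt5a and 8.18, 8.05 and 8.13 in untreated cells. The groups with Wnt5a overlapped and lay above those without it, and the combination was 0.62 ± 0.07 over Wnt3a (SE, adjusted p = 0.000685, limma), with 0.59 for a second probe. ZMAT3, a p53 target, was 0.43 higher (adjusted p = 0.029), and GADD45A and BIK, a pro-death gene (-0.49, adjusted p = 0.0229), were lower. ZMAT3 (0.47, adjusted p = 0.181) and BIK (-0.48, adjusted p = 0.213) did not pass without Wnt3a array 1. The other ZMAT3 probes gave 0.45 and 0.38 with all arrays (adjusted p = 0.114 and 0.0757).

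Lists of blood cell genes held between 0 and 3 changed genes each. Over all genes 3.37% were higher and 2.26% lower, and counts this small say little about a list. The summed marker levels given above ran lower with both ligands in the megakaryocyte, erythroid, myeloid and lymphoid lists alike. They overlapped Wnt3a in the megakaryocyte and erythroid lists. The part of these sums in the counts was not tested. Of 27 tested megakaryocyte and platelet genes, CD9, a tetraspanin of platelets, was 0.31 higher and LTBP1, which binds latent TGF-beta, differed by -0.32 (adjusted p = 0.0314 and 0.0399), with a list median of -0.03. The second CD9 probe gave 0.03 (adjusted p = 0.926). Of 31 genes in the list of haematopoietic transcription factors, GFI1B, a repressor needed for megakaryocytes and red cells (9.85, 9.64 and 9.83 with both ligands, 10.32, 10.26 and 10.19 with Wnt3a, 9.89, 9.96 and 9.72 with Wnt5a and 10.56, 10.59 and 10.57 in untreated cells, a difference of -0.54, adjusted p = 0.00677), and ETS1 (-0.42, adjusted p = 0.0153, with a second probe at -0.18, adjusted p = 0.294) were lower. FOXA2, in this list although described above as a factor of endoderm, was higher. Of 16 erythroid genes HBZ was higher, of 6 lymphoid markers CD7 was (0.51, adjusted p = 0.0334), and of 10 myeloid markers 0 passed in limma (medians -0.03, -0.02 and -0.13). HBZ apart, these genes lost their calls without Wnt3a array 1 (GFI1B -0.52, ETS1 -0.38, CD9 0.37, LTBP1 -0.27 and CD7 0.48, adjusted p = 0.115 to 0.346).

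Of 20 tested integrin and matrix adhesion genes, VCL, which encodes the adhesion protein vinculin (-0.53, adjusted p = 0.0193), VASP, which promotes actin growth (-0.37, adjusted p = 0.0361), and CASS4 were lower, and the focal adhesion kinase PTK2 (0.34, adjusted p = 0.0331) and the integrin ITGAE (0.40, adjusted p = 0.0328) were higher (list median 0.05). Of 31 genes of the proplatelet cytoskeleton the 3 that were lower were VCL, VASP and ACTB (list median -0.06). ACTB, beta-actin, differed by -0.33 (adjusted p = 0.0169), but its other 2 probes gave -0.16 and -0.14 and did not pass (adjusted p = 0.449 and 0.332, limma). With CHMP2A, detected on 1 combination array and with 2 other probes that did not pass (-0.04 and -0.22, adjusted p = 0.893 and 0.115), ACTB made 2 of 23 housekeeping genes that were lower (list median -0.09). None of these 7 genes passed without Wnt3a array 1 (adjusted p = 0.0708 to 0.46). The second VCL probe gave -0.21 (adjusted p = 0.1). Over all genes 3.37% were higher and 2.26% lower.

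Of 23 genes of sterol and fatty acid synthesis 3 were lower, among them SREBF1, a regulator of lipid synthesis (-0.35, adjusted p = 0.0239), and SCD, a fatty acid desaturase (-0.31, adjusted p = 0.0356, list median -0.08). Of 14 genes of metallothioneins and zinc transport SLC30A5 was 0.35 higher (adjusted p = 0.0153), while its other 3 probes gave 0.13 to 0.19 and did not pass (adjusted p = 0.174 to 0.602), and SLC39A14 differed by -0.42 (adjusted p = 0.0207, list median -0.10, limma). Of 33 genes of ribosome biogenesis ODC1, of polyamine synthesis, was lower (-0.48, adjusted p = 0.0207, list median -0.11), and of 39 genes of DNA replication RRM2, which makes deoxynucleotides, was (-0.44, adjusted p = 0.0276, list median -0.11). Of 39 genes of mitosis the checkpoint kinase BUB1 was 0.42 higher (adjusted p = 0.00997, list median -0.01), of 16 G1 cyclins and kinase inhibitors CCND1 and CCND2 were lower (list median -0.11), and of 29 interferon response genes IFIT3 was 0.36 higher (adjusted p = 0.041, with other probes at 0.20 and 0.31, adjusted p = 0.258 and 0.136, list median -0.01). None of the 7 genes from SREBF1 to BUB1 passed without Wnt3a array 1, nor did IFIT3 (adjusted p = 0.107 to 0.312). The second SREBF1 probe gave -0.21 (adjusted p = 0.0902). Over all genes 3.37% were higher and 2.26% lower, and 1 gene in a list of 29 to 39 is near these shares.

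**Figure D4:**
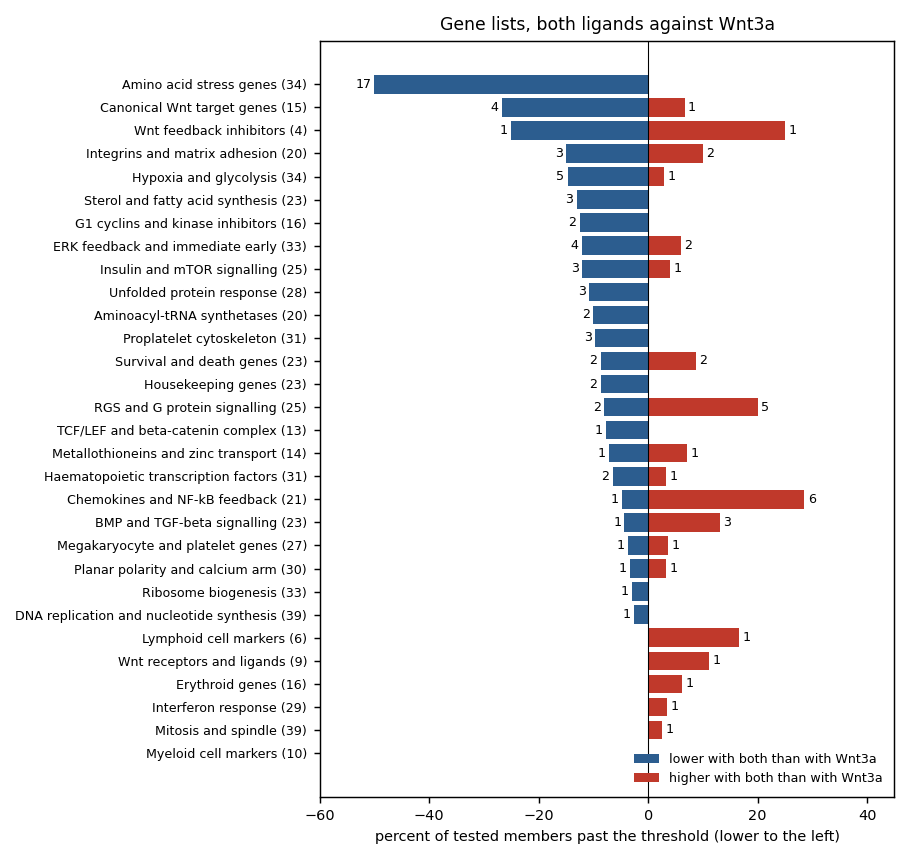
Percent of the tested members of 30 gene lists past the threshold for both ligands against Wnt3a (horizontal axis, lower to the left and higher to the right), with the number of tested genes beside each name and the number past the threshold at each bar. Amino acid stress genes have the longest bar to the left (17 of 34), and 6 of 21 chemokine and NF-kB genes lie to the right.

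**Figure D5:**
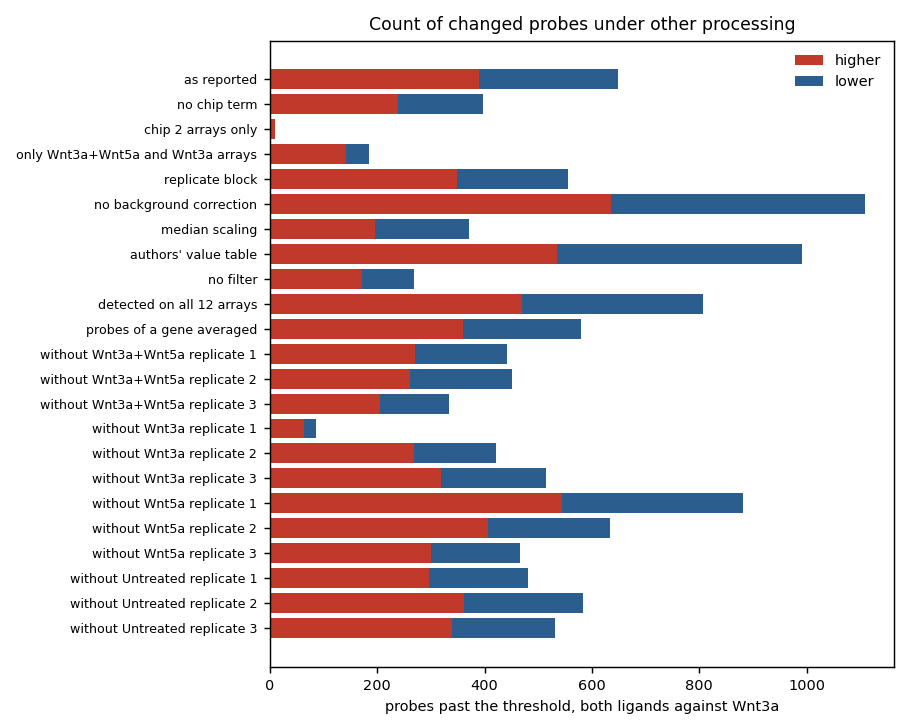
Number of probes past the threshold for both ligands against Wnt3a (horizontal axis), higher in red and lower in blue, as reported and under each alternative analysis or with 1 array left out. The count is 648 as reported, 9 on the arrays of chip 2 alone, 86 without Wnt3a array 1 and 1108 without background correction.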

How the data were processed

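The authors deposited signals as non-normalized intensity for 48803 probes on 12 Illumina BeadChip arrays, with detection values as a fraction of 0 to 1 that is highest for the brightest probes. A second deposited table holds log2 values whose quantiles are equal on all arrays, and served only as an alternative. The labels name lumi, per the submitters' processing notes, and its version and settings are not given in the sources used here.

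Signals were background-corrected by normexp with the detection p (1 minus the detection value), an offset of 16 and quantile normalization, then log2-transformed, with limma 3.58.1 in R 4.3.3. Probes with a detection value above 0.99 on at least 3 arrays were tested (14051). All 12 arrays entered 1 linear model of treatment group (4 levels) plus chip (7 residual and 5.04 prior degrees of freedom), with two-sided p adjusted by Benjamini-Hochberg. The script was tested on simulated data. The number of arrays limits the precision. For a gene detected on 0 arrays of a group, the lower bound sets the mean of the other group against, per array, the higher of the lowest detected signal and its own.

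Named were the 15 largest rises and falls between both ligands and Wnt3a whose chip-adjusted values did not overlap (brightest passing probe of a gene), the 12 largest Wnt3a effects of each class, at most 8 genes past the threshold per list, and all tested members of the Wnt feedback inhibitor and TCF/LEF lists. List medians use the brightest probe. There were 30 lists with 910 entries, 908 on the array and 694 tested. Members and lists were chosen with earlier results of these data known. Symbols came from GEO's platform annotation for 11775 tested probes and from the deposited table for 2274. The values of 1 list member are not reported here.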

Additional observations from a re-analysis of the deposited data

How the results depend on the processing

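The named genes past the threshold kept their sign under all alternatives run, but the counts did not hold. Of 107 such genes, 36 passed without Wnt3a array 1, 34 in all 12 fits that left out 1 array, 8 on chip 2 alone, 74 with median scaling, 86 without the chip term and 103 in the authors' table, where 61 had values more than 1.5 times smaller. Fits on fewer arrays have fewer degrees of freedom, and a filter on fewer or more probes changes the adjustment. For the other moves the cause was not tested.

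Probes higher and lower with both ligands than with Wnt3a (390 and 258) numbered 238 and 159 without the chip term, 9 and 0 on chip 2 alone, 141 and 43 on the 6 arrays alone, 635 and 473 without background correction, 196 and 175 with median scaling (median of all probes -0.041), 534 and 457 in the authors' table, and 172 and 97 with no filter. Responses lowered, extended and kept (46, 11 and 107) numbered 0, 0 and 2 on chip 2 alone, 80, 34 and 144 without background correction, 93, 35 and 126 in the authors' table, and 24, 4 and 54 with no filter. Extended responses numbered 6 with median scaling and 17 among probes detected on all 12 arrays. The share of higher calls was 60.2% in the main analysis, 76.6% on the 6 arrays alone and 100% on chip 2 alone. Calls for the difference between the Wnt5a effects numbered 0, but 8 without background correction and 1 in the authors' table. Leaving out 1 array gave 64 to 545 higher, 22 to 337 lower, 9 to 48 lowered, 2 to 17 extended and 31 to 117 kept, with 0 for the difference. Kept responses were fewest without untreated array 1 (31).

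Replicate numbers are shared between groups, and the labels do not say what they mark. Same-numbered combination and Wnt3a arrays correlated in their deviations at -0.0714 to 0.297, and 4 of 6 arrays correlated best with their own number. Over all groups 11 of 18 same-number pairs were over 0.1, against 6 of 36 other pairs, a hint from the data and not the design. With a replicate block, 348 probes were higher and 207 lower.

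The only reversed signs were of genes not past the threshold: TMEM40 (0.05), CTNNB1 (0.03), BTRC (0.05) and BCL9 (-0.08) without the chip term, GSK3B (-0.06) on chip 2 alone and on the 6 arrays alone, BTRC (0.05) with the replicate block, BCL9 (-0.01) with median scaling and TLE5 (-0.01) with probes averaged. With 1 array left out, values ran from -0.13 to 0.21 for TMEM40, -0.10 to 0.05 for BTRC, -0.08 to 0.12 for BCL9, -0.10 to 0.01 for DLC1, -0.09 to 0.01 for TLE4 and -0.24 to 0.02 for ZNRF3, which was not above background with both ligands, so that its values have no measured size.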
